A study of Mus musculus with 4 samples.

Results

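Mouse embryonic stem cells pass from a naive state, marked by Zfp42 (also called Rex1), to a formative state that precedes lineage choice. The cells described here held at most 1 captured molecule of Zfp42. They also held too few Fgf5 and Pou3f1 molecules to be counted as formative, and too few Krt8 and Krt18 molecules for keratin-high. They were chosen by raw counts of unique molecular identifiers (UMIs), each of which stands for 1 captured RNA molecule: Zfp42 at most 1 UMI, Fgf5 and Pou3f1 together under 5, and Krt8 and Krt18 together under 5. Of 31989 cells kept after filtering, 2292 met these limits and are called Zfp42-low cells below. They were set against Zfp42-high cells of the same library, which had at least 5 Zfp42 UMIs and met the same limits on the other 4 genes (21261 cells).

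The study profiled mouse embryonic stem cells of the male parental line E14tg2a.4 (WT) and cells heterozygous for a gene trap in Srrm2 (Srrm2 hKO), 2 samples of each, by droplet 3' single-cell RNA sequencing. Srrm2 encodes a large scaffold protein of nuclear speckles. The Srrm2 hKO cells come from 1 gene-trap line, CG0630, whose cassette lies in exon 1, so the genotype rests on 1 clone and the cells were taken at different passages. All samples were grown in serum-free ESGRO medium with LIF, for 24 or 72 h by the labels, which do not say which sample had which, while the methods for the single-cell samples give another length of culture. The 4 libraries in the pooled matrix carry numbers that no label ties to a sample, so they are called libraries 1 to 4, no WT against Srrm2 hKO comparison was made, and no library value is a replicate of a genotype. Srrm2 itself stood at 406, 569.7, 266 and 370.2 UMIs per 1000000 UMIs (CPM) in the Zfp42-low cells of libraries 1 to 4 and at 386, 519, 231 and 339 CPM in their Zfp42-high cells. Zfp42-low cells thus held 1.05- to 1.15-fold the Srrm2 level of Zfp42-high cells within a library, a smaller spread than that between libraries.

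Kept cells held 166839268 to 200180473 UMIs per library and a median of 18378 to 21898 UMIs per cell. Of all 41142 deposited barcodes, 322 occurred in more than 1 library, and 22 Zfp42-low cells carried such a barcode. No doublet caller was run. Zfp42-low cells were shallower than Zfp42-high cells, with medians of 16468, 16888, 17308 and 16978 against 18902, 22094, 19292 and 21479 UMIs in libraries 1 to 4, and a limit on raw UMIs takes up shallow cells more readily. Cells above 2 times the median UMI count of their library made up at most 0.872% of the Zfp42-low cells of any library. Since cells are not replicates and the libraries form no groups, no test was run. Every interval given covers counting error only.

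In naive cells, a network of transcription factors that includes Nanog, Esrrb, Klf2, Klf4 and Tfcp2l1 is held up by LIF acting through STAT3 and opposed by FGF acting through ERK. When this network comes down, cells keep Pou5f1 and Sox2, raise Dnmt3a and Dnmt3b, Otx2, Fgf5 and Pou3f1, and become competent for germ layer and germ cell fates. Zfp42, a zinc finger factor of the YY1 family, is dispensable for self-renewal and is used as a reporter because its message is lost early as cells leave the naive state.

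Zfp42-low cells made up 4.24% of the kept cells of library 1 (344 of 8118; exact 95% binomial interval 3.81 to 4.699%), 4.71% of library 2 (401 of 8514; 4.27 to 5.18%), 7.15% of library 3 (564 of 7893; 6.59 to 7.74%) and 13.2% of library 4 (983 of 7464; 12.4 to 13.96%). The intervals cover the counting of cells within a library, and with no replicate of a library the spread between samples is not known. The share rests on raw limits. With limits rescaled to 20000 UMIs per cell it was 2.91, 3.48, 5.80 and 11.2%, and with every cell thinned to 5000 UMIs, where few molecules of any of the 5 genes remain, it was 31.9, 34.8, 37.3 and 55.1%. Under each of these settings library 4 had the highest share and library 1 the lowest.

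The values that chose the cells are a description. Zfp42 (mm10 chr8:43295063-43306980) stood at 28.1, 29.3, 24.6 and 24.2 CPM in the Zfp42-low cells and at 591, 668, 572 and 707 CPM in the Zfp42-high cells of libraries 1 to 4. Pou3f1, a POU factor of the formative epiblast, stood at 40.4, 105, 69.2 and 110.1 CPM in the Zfp42-low against 5.33, 18.4, 8.35 and 25.9 CPM in the Zfp42-high cells. Residual formative message was therefore common below the limit. Zfp42-low cells with no UMI of Fgf5 or Pou3f1 were 63.95, 23.7, 41.3 and 15.5% of the class in libraries 1 to 4, against 90.7, 71.4, 86.2 and 64.2% of the Zfp42-high cells. Those with 3 or 4 such UMIs were 15.99, 42.4, 22.2 and 43.1%. Zfp42-low cells with no keratin UMI were 70.1, 53.6, 46.1 and 34.9%, and cells with none of the 4 genes numbered 179, 66, 123 and 66. In libraries 2 to 4 a cell that lacked all 4 was thus the exception.

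Against the working description of these cells as not formative, the formative list without Fgf5 and Pou3f1 was higher in sum in them than in Zfp42-high cells, though not in every gene. It holds 12 genes, to whose sum Dnmt3b gave the largest part, and summed to 730.4, 1592, 920.2 and 1668 CPM in the Zfp42-low cells of libraries 1 to 4 against 324, 654, 418 and 752 CPM in the Zfp42-high cells, 2.204- to 2.43-fold higher. Its log2 ratios were 1.17, 1.28, 1.14 and 1.15, with the smallest at 1.14 in library 3 (95% counting interval 1.11 to 1.17). The class is therefore named by its rule only.

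The naive list, 13 genes without Zfp42, was lower in Zfp42-low cells of all 4 libraries. It summed to 1032, 527, 459 and 276 CPM in Zfp42-low against 1864, 1562, 1606 and 1257 CPM in Zfp42-high cells. The log2 ratios were -0.85, -1.57, -1.81 and -2.19, the one nearest to 0 being -0.85 in library 1 (95% counting interval -0.89 to -0.82). Library 1 kept more of the naive message than the others and library 4 the least, while the Zfp42-high cells of the 4 libraries lay much closer to each other. A gene was tested for a difference if equal rates would give it at least 20 UMIs in the smaller class of every library, and was counted as higher or lower if all 4 libraries agreed in direction and each differed by a factor of 1.5 or more. By this rule 12 of the 13 naive genes were lower, and 4.14% of all 9367 tested genes were lower. The equal rate pools both classes, so a gene scarce in Zfp42-low cells can enter the test through the Zfp42-high cells. The median over the naive genes of their log2 ratio (each the median of 4 libraries) was -2.15, beside 0.06 over all tested genes.

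Klf4, a Krüppel-like factor of the network and one of the original reprogramming factors, stood at 83.6, 29.1, 23.3 and 6.13 CPM in the Zfp42-low cells of libraries 1 to 4 and at 179, 129.8, 145 and 98.1 CPM in the Zfp42-high cells. It was lower by 2.14- to 15.999-fold, least in library 1 and most in library 4. Its relative Klf2 stood at 319, 167, 117 and 52.7 against 579.8, 531, 540.4 and 412 CPM. Klf5, which shares targets with both, stood at 187, 111, 140.2 and 107 against 281, 201, 212 and 188 CPM, a drop of only 1.51- to 1.81-fold. Among the 3 Krüppel-like factors, Klf5 thus had the smallest difference in each library. Esrrb, an orphan nuclear receptor that sustains self-renewal, stood at 39.4, 15.1, 12.2 and 6.19 CPM in Zfp42-low and 71.05, 64.05, 66.2 and 59.6 CPM in Zfp42-high cells, with a log2 ratio of -0.85 in library 1 (95% counting interval -1.05 to -0.66) at its smallest. Nanog, the homeodomain factor of the network, stood at 98.9, 47.5, 47.4 and 26.3 against 161, 157, 133 and 109 CPM.

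Prdm14, which represses FGF signalling and DNA methylation in naive cells, was scarce in Zfp42-high cells (9.29, 5.11, 6.61 and 3.75 CPM) and rarer still in Zfp42-low cells (5.46, 1.94, 0.884 and 0.0601 CPM), so that its value in library 4 rests on 1 UMI. Tbx3, a T-box factor of the network, differed between libraries in both classes. It stood at 35.8, 4.18, 6.39 and 1.26 CPM in Zfp42-low and 80.7, 13.5, 47.7 and 6.91 CPM in Zfp42-high cells, highest in library 1 and lowest in library 4 in both classes, and was 2.25- to 7.47-fold lower within a library. Dppa3 (also called Stella), which protects methylation marks in the early embryo, stood at 16.7, 29.1, 17.1 and 17.8 against 25.2, 87.9, 62.04 and 109 CPM. Its smallest difference was a log2 ratio of -0.59 in library 1 (95% counting interval -0.897 to -0.303). The naive gene that did not pass in every library was Fgf4, the FGF that stem cells themselves secrete and that drives exit from the naive state. It stood at 57.3, 59.995, 38.03 and 38.6 against 84.998, 97.1, 72.6 and 83.3 CPM, with log2 ratios of -1.11 to -0.57, and a factor below 1.5 in library 1.

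The change was stepwise in Zfp42. With the other limits held, the naive list stood at 860.3, 1241, 1576, 1684, 1797 and 1894 CPM in cells of library 1 with 0, 1, 2, 3 to 4, 5 to 9 and 10 or more Zfp42 UMIs. Over the same steps it stood at 382, 668, 883, 1174, 1419 and 1596 CPM in library 2, at 370.3, 567, 940.0, 1289.5, 1493 and 1659 CPM in library 3 and at 239, 327, 486, 723, 1099.5 and 1296 CPM in library 4. The list climbed at every step in all 4 libraries, and the cells just inside the limit (1 UMI) and just outside it (2 UMIs) took their place in this order. The formative list was lower at 10 or more Zfp42 UMIs than at 0, at 743 against 1691 CPM in library 4 and 324 against 839.8 CPM in library 1, where it was level over the last steps. Zfp42 UMIs of a cell also scale with its depth. In cells of 12000 to 22000 UMIs alone, the naive list of library 4 ran from 228 to 1339.6 CPM and that of library 1 from 943 to 1948 CPM. The formative list in these cells ran from 1697 to 707 CPM in library 4 and from 838 to 309 CPM in library 1, where it was lowest, at 300.4 CPM, in cells with 3 to 4 Zfp42 UMIs.

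**Figure D1:**
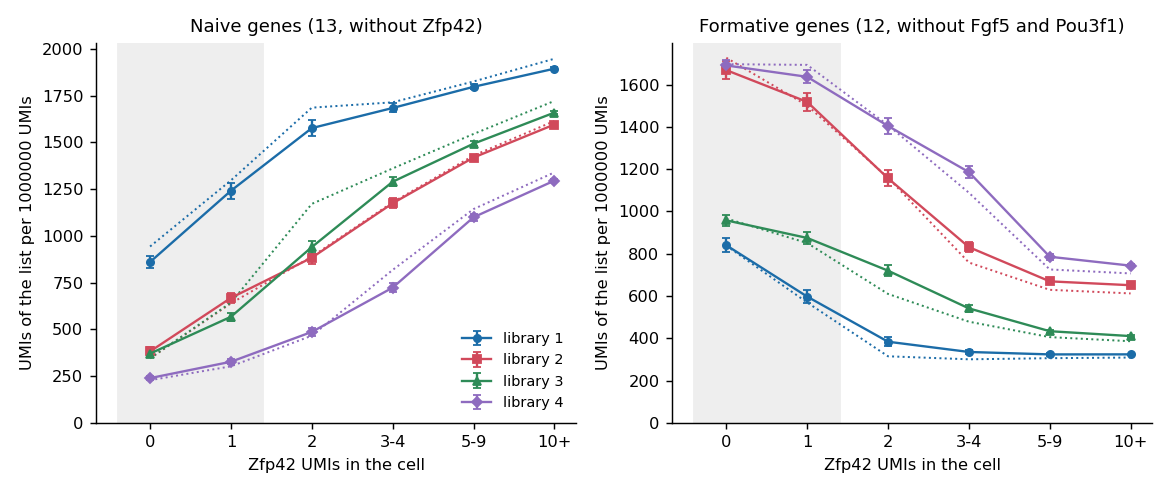
Summed CPM of the naive and formative lists (y axes) in cells grouped by their Zfp42 UMIs (x axis), 1 line per library, with 95% counting intervals; dotted lines hold cells of 12000 to 22000 UMIs only and the grey band marks the Zfp42-low cells. The naive list of library 4 goes from 239 CPM at 0 Zfp42 UMIs to 1296 CPM at 10 or more, and that of library 1 from 860.3 to 1894 CPM.

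Across the genome, 385 of 9367 tested genes (4.11%) were higher and 388 (4.14%) lower in Zfp42-low cells in all 4 libraries. Under these limits, each count of list members against Zfp42-high cells is to be read beside these shares. The counts depended on the limits. With limits of under 2 UMIs in place of 5, in both classes, 53 genes were higher and 34 lower among 7206 tested, and with no UMI of the 4 genes at all, 10 were higher and 5 lower among 4712 tested. The smaller class then also leaves fewer genes to test. Library 1 bounded the counts: without it, 670 genes were higher and 570 lower. With Zfp42-high cells weighted to the UMI distribution of the Zfp42-low cells, 382 and 385 genes passed, of which 348 and 364 were those counted without weights. The naive genes counted as lower went from 12 of 13 to 0 of 12 with limits under 2 UMIs, although the list as a whole stayed lower, at a median log2 ratio of -0.997.

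The genes that differed most were named by the smallest absolute log2 ratio among the libraries, 12 in each direction. Nes (nestin, an intermediate filament protein of neural and other progenitors; mm10 chr3:87971078-87980451) led those that were higher. It stood at 35.98, 65.1, 66.5 and 88.4 CPM in Zfp42-low against 2.97, 8.08, 6.05 and 11.7 CPM in Zfp42-high cells, a log2 ratio of at least 2.92 in library 4 (95% counting interval 2.800 to 3.05). Pim2, a serine/threonine kinase that promotes growth and survival, stood at 164, 258, 201 and 277 against 11.9, 27.02, 17.7 and 37.5 CPM. Arl4c, a small GTPase of the ARF family, stood at 48.4, 63.7, 80.3 and 76.3 against 4.11, 6.8999, 7.64 and 12.4 CPM. For each of the 3, every library's Zfp42-low value lay above every library's Zfp42-high value. The ranking by smallest log2 ratio favours such genes, and the share of all tested genes without overlap was not computed.

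Zyx (zyxin, of focal adhesions), also among the 12, was 4.12- to 7.096-fold higher, at 17.7, 32.4, 52.9 and 39.8 against 3.56, 5.34, 7.45 and 9.67 CPM. Trio was 5.22- to 7.12-fold higher. Cldn7, a claudin of tight junctions, stood at 107, 120.0, 138 and 198 CPM in Zfp42-low and 22.7, 22.3, 29.9 and 49.8 CPM in Zfp42-high cells. Adgrl2, an adhesion receptor of the latrophilin family, was 4.06- to 5.28-fold higher. Cald1 (caldesmon, which binds actin and tropomyosin) stood at 59.3, 59.4, 274 and 87.97 against 12.01, 11.5, 25.999 and 20.2 CPM, and its value in library 3 stood far above the others.

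The remaining 4 were a signalling receptor, 2 nuclear factors and a surface antigen. Smo, the membrane protein that transmits Hedgehog signals, stood at 18.9, 25.5, 25.9 and 27.6 against 4.38, 4.15, 5.11 and 6.19 CPM. Pbx3, a homeodomain partner of Hox proteins, was 3.77- to 4.12-fold higher, and Lmo4, a LIM-only cofactor, 3.63- to 4.95-fold higher. H2-K1, a class I major histocompatibility heavy chain, stood at 33.1, 27.2, 44.3 and 47.9 against 6.48, 6.41, 8.44 and 10.5 CPM, and reads of H2-K1 can be shared with near-identical class I genes. Pbx3 was the most even of the 12, with 23.2 to 29.4 CPM across the Zfp42-low cells of the 4 libraries.

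The 12 that were lower were mostly rare messages. Bmp4, a ligand that works with LIF to hold cells in self-renewal, was among the most abundant of them. It stood at 19.8, 12.8, 16.4 and 6.61 CPM in the Zfp42-low cells of libraries 1 to 4 against 50.5, 52.4, 52.3 and 50.5 CPM in the Zfp42-high cells, which were nearly equal across libraries. Its log2 ratio nearest to 0 was -1.35 in library 1 (95% counting interval -1.63 to -1.09). Mras, a RAS-family GTPase, stood at 14.5, 6.57, 4.72 and 0.661 against 37.95, 29.4, 27.6 and 14.6 CPM and had its largest difference in library 4, on 11 UMIs of the Zfp42-low cells. Dusp27, an atypical member of the dual-specificity phosphatase family, stood at 11.4, 13.6, 7.96 and 11.1 against 34.3, 50.1, 39.002 and 45.04 CPM. Pax6, the paired-box factor of eye and forebrain, stood at 6.99, 4.48, 5.798 and 3.36 against 18.8, 16.2, 18.9 and 13.03 CPM.

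The others of the 12 were at most 37.6 CPM in either class of any library. Dnajc6 (auxilin, which uncoats clathrin vesicles) was 3.703- to 8.48-fold lower and Calcoco2, an autophagy receptor, 2.55- to 10.4-fold lower. Cpsf4l, named for its likeness to a polyadenylation factor, stood at 12.1, 8.36, 5.11 and 3.55 against 33.4, 29.2, 37.6 and 25.6 CPM. Serpinb6c, a protease inhibitor with close paralogs among which reads may be split, was 2.93- to 7.44-fold lower. Spats1, Myh13 (a myosin heavy chain), Arl14epl and Ly6g6d had smallest log2 ratios of -1.58, -1.42, -1.41 and -1.39. For Myh13, Mras, Arl14epl, Bmp4 and Calcoco2 the difference was largest in library 4.

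**Figure D2:**
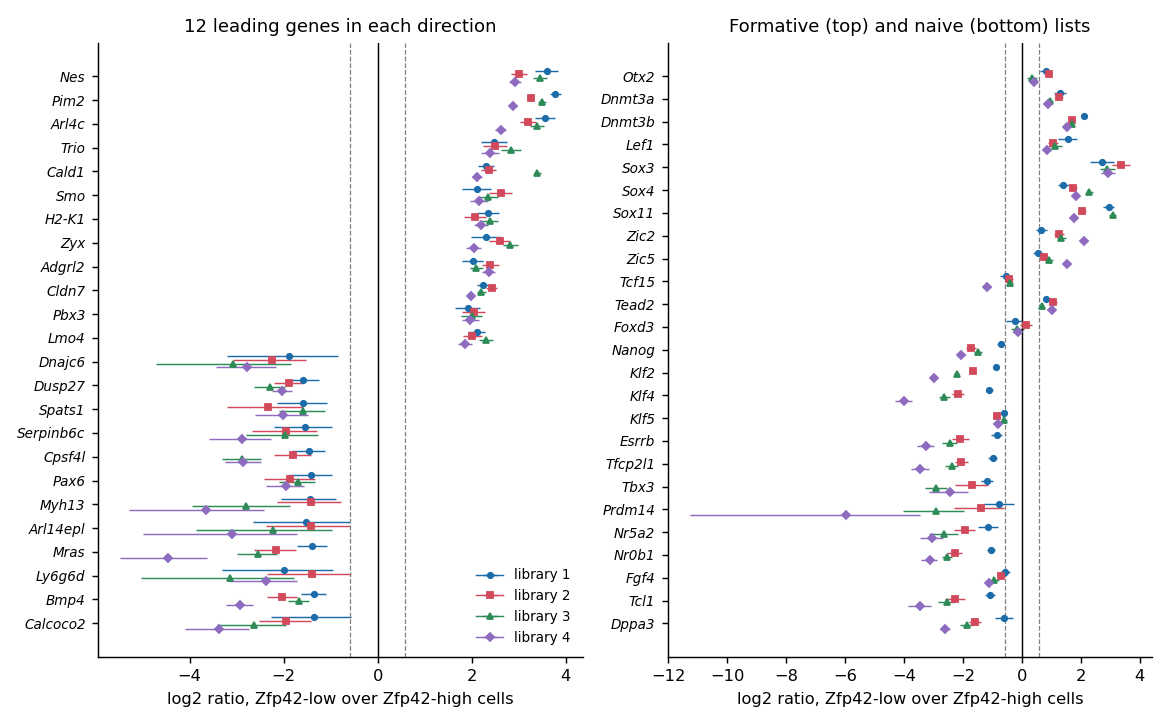
Log2 ratio of CPM in Zfp42-low over Zfp42-high cells (x axis) of the 24 leading genes and of the formative and naive lists (y axis), 1 point per library with its 95% counting interval and dashed lines at 1.5-fold. Nes lies at 2.92 to 3.601, Dnmt3b at 1.52 to 2.13, Esrrb at -3.27 to -0.85 and Fgf4 at -1.11 to -0.57.

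Of the formative list, 11 genes were tested, 7 were higher and none lower, beside 4.11% of all tested genes that were higher. Dnmt3b, the de novo DNA methyltransferase that rises as naive cells mature, made up the largest part of the list. It stood at 274, 779, 333 and 837 CPM in Zfp42-low against 62.8, 239.8, 103 and 292 CPM in Zfp42-high cells, with a log2 ratio of 1.52 in library 4 (95% counting interval 1.49 to 1.55) at its smallest. Dnmt3a, the other de novo enzyme, stood at 43.3, 103, 69.7 and 109 against 17.6, 42.5, 35.9 and 58.9 CPM. Sox11 and Sox4, SoxC factors of progenitor cells, were 3.46- to 8.52-fold and 2.65- to 4.89-fold higher, and Sox11 stood at 55.9, 105, 92.6 and 103 against 7.24, 25.3, 10.9 and 29.8 CPM. Lef1, a Wnt-responsive factor, was 1.82- to 2.97-fold higher, Tead2, a partner of YAP, 1.59- to 2.09-fold higher and Zic2, a zinc finger factor of the primed state, 1.59- to 4.35-fold higher.

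The other members went their own ways. Otx2, the homeodomain factor that drives entry into the formative state, stood at 42.1, 135, 30.5 and 128 against 23.96, 70.7, 23.9 and 96.8 CPM and missed 1.5-fold in libraries 3 and 4. Zic5 missed it in library 1 alone (53.2, 61.8, 50.9 and 74.4 against 36.2, 36.4, 26.5 and 25.7 CPM). Foxd3, needed for pluripotent cells to persist, had log2 ratios of -0.24 to 0.14. Tcf15, an early marker of cells priming for exit, pointed the other way, at 34.6, 65.2, 70.8 and 42.4 against 49.9, 88.4, 93.6 and 95.04 CPM, and was past 1.5-fold only in library 4. Sox3, below the count minimum, stood at 11.4, 18.8, 21.5 and 22.7 against 1.72, 1.81, 2.88 and 2.98 CPM. In cells without a UMI of the 4 limiting genes, 1 of 6 tested formative genes was higher, beside 10 of all 4712 tested genes. The list then had a median log2 ratio of 0.52.

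The core pluripotency genes divided. Of 8 tested, 2 were lower and 0 higher, beside 4.14 and 4.11% of all tested genes. Pou5f1 (Oct4) was level, at 855, 845, 672 and 787 CPM in Zfp42-low and 854, 782, 716 and 759 CPM in Zfp42-high cells, with log2 ratios of -0.09 to 0.11. Sox2, its partner, was lower in all 4 libraries, at 245, 219.8, 128 and 163 against 443, 461, 387 and 452 CPM, 1.804- to 3.02-fold. Dppa5a, an RNA-binding protein of pluripotent cells, was lower too, at 3273, 2187, 1939.6 and 1491 against 5416, 3845, 5130.0 and 3605 CPM. The other 5 tested genes (Sall4, Utf1, Lin28a, Dppa4 and Tdgf1) did not reach 1.5-fold in all libraries. Of these, Utf1 had log2 ratios of -0.01 to 0.198 and Lin28a, an inhibitor of let-7 processing, of 0.35 to 0.67. Lin28b, its paralog, chosen after its values were seen, was higher at 26.6, 36.7, 28.3 and 36.5 against 10.4, 14.2, 13.1 and 15.6 CPM.

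In the LIF and STAT3 list both receptor chains were lower. Lifr, which binds LIF, stood at 16.03, 16.9, 10.5 and 13.04 against 29.3, 30.9, 28.05 and 32.99 CPM, and Il6st (gp130), its signalling partner, at 12.96, 13.4, 9.04 and 8.35 against 23.7, 26.8, 20.5 and 21.5 CPM. The third gene of the list that was lower was Tfcp2l1, a STAT3 target of the naive network, at 52.4, 23.6, 16.7 and 5.53 against 104, 97.5, 86.7 and 60.1 CPM. The kinase Jak1, Stat3 itself and the STAT3 targets Socs3 and Pim1 did not pass in all 4 libraries. Stat3 had log2 ratios of -0.38 to -0.15 and the feedback inhibitor Socs3 of -0.55 to -0.195. The list had 3 of 7 genes lower, beside 4.14% of all tested genes, none higher, and a median log2 ratio of -0.61.

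Of the DNA methylation list, 3 of 8 genes were higher and 3 lower, beside 4.11 and 4.14% of all tested genes. Beside Dnmt3a and Dnmt3b, which the formative list also holds, Tdg, a glycosylase that removes oxidised methylcytosine, was higher at 43.7, 73.6, 51.1 and 96.3 against 24.9, 41.4, 28.99 and 48.2 CPM. Dnmt3l, the cofactor without catalytic activity, was lower at 55.4, 66.4, 31.8 and 47.7 against 114, 159, 119 and 152 CPM, opposite in direction to its partner enzymes. Tet1 and Tet2, which oxidise methylcytosine, stood at 248, 249, 141 and 202 against 406, 385, 379 and 429 CPM and at 21.8, 7.16, 12.8 and 5.59 against 49.4, 36.9, 38.8 and 26.997 CPM. The maintenance genes Dnmt1 and Uhrf1 had log2 ratios of -0.51 to -0.09 and -0.51 to -0.08 and did not pass.

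The FGF and ERK feedback list had a median log2 ratio of 0.08, near the 0.06 of all tested genes. Of its 8 genes 2 were higher, beside 4.11% of all tested genes, the phosphatases Dusp6 (26.4, 27.8, 43.4 and 29.6 against 11.4, 14.2, 16.2 and 18.2 CPM) and Dusp4 (18.6, 24.8, 29.7 and 29.3 against 5.53, 5.95, 10.1 and 12.1 CPM), both of which dephosphorylate MAP kinases. The Sprouty genes, Spred1 and the ETS factors Etv4 and Etv5 did not pass in all libraries. No gene of the Nodal list passed in either direction. Lefty1, a Nodal antagonist, was higher in libraries 1 and 3 and not in the others, at 138, 67.5, 159 and 36.2 against 47.6, 72.1, 32.3 and 32.4 CPM. Of 5 tested genes of the Wnt list, Lef1 was higher and Sp5, a direct Wnt target, lower (2.22, 3.43, 4.91 and 1.92 against 5.703, 6.84, 12.5 and 4.13 CPM), beside 4.11 and 4.14% of all tested genes. The repressor Tcf7l1 had log2 ratios of -0.08 to 0.11. Of the 4 tested Id genes, BMP targets that block basic helix-loop-helix factors, Id2 was higher (14.7, 59.7, 27.9 and 73.4 against 6.05, 31.9, 8.08 and 31.5 CPM) and Id4 lower, beside the same shares of all tested genes. Id1 missed 1.5-fold in library 1 (22.9, 129, 85.7 and 182 against 16.3, 51.1, 30.998 and 64.8 CPM).

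Lists of other lineages are given by their sums. The primed and streak list of 10 genes summed to 6.82, 25.97, 17.6 and 14.8 CPM in Zfp42-low and 3.45, 4.79, 2.89 and 4.09 CPM in Zfp42-high cells, and no member reached the count minimum. Brachyury (T), which defines the streak, stood at 0.512, 6.27, 2.16 and 2.22 against 0.172, 0.332, 0.277 and 0.326 CPM. Primitive endoderm genes summed to 4.95, 5.82, 12.3 and 8.83 against 2.17, 1.91, 2.58 and 2.16 CPM, of which Gata6 made up at most 0.786 CPM. Trophectoderm genes were level in sum (14.2, 12.4, 12.97 and 11.96 against 16.1, 12.9, 12.7 and 10.7 CPM), with Cdx2 at 0.448 CPM or less and Tead4 lower. The neural list summed to 82.4, 113, 108 and 134 against 80.5, 93.4, 78.1 and 100.2 CPM. Nes rose by more than this sum in each library, so the rest of the list was lower in sum. The 4 tested neural genes had a median log2 ratio of -0.66, with Nes higher and Pax6 lower, beside 4.11 and 4.14% of all tested genes. Sox1 stood at 2.39, 0.149, 6.98 and 0.601 CPM. Zscan4 and the other genes of the two-cell-like state summed to 1.88, 3.88, 4.03 and 0.3004 against 0.358, 0.318, 0.680 and 0.284 CPM, on 11, 26, 41 and 5 UMIs of the Zfp42-low cells, and no member reached the count minimum. The germline list summed to 437, 186, 314 and 171 against 315, 154, 284 and 151 CPM. Of its 6 tested genes, 1 was higher (Ddx4, 1.61- to 2.47-fold) and 1 lower (Rpl10l), beside 4.11 and 4.14% of all tested genes.

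A small set of Zfp42-low cells held little or no Pou5f1. This set, found after the values were seen, held the cells with at most 2 Pou5f1 UMIs: 6, 4, 52 and 31 cells in libraries 1 to 4, or 1.74, 0.998, 9.22 and 3.15% of the class, against at most 0.398% of Zfp42-high cells. Library 3 stood out, with 52 of 564 cells (exact 95% binomial interval 6.96 to 11.9%), of which 29 had no Pou5f1 UMI at all. In libraries 1, 2 and 4 the cells with none numbered 1, 2 and 3, so that most of the set in library 4 held 1 or 2. These cells were shallow, with median UMIs of 9252, 13044, 12366 and 7640.0.

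In library 3 these 52 cells carried genes of contractile and mesenchymal cells. Vim (vimentin, chosen after its values were seen) stood at 3334 CPM in them and at 74.02 CPM in the other Zfp42-low cells of the library. Tagln (transgelin, a smooth muscle actin-binding protein) stood at 1254 against 69.04 CPM and Col1a2, a chain of type I collagen, at 124 against 0.318 CPM. The fibroblast list summed to 293 against 3.08 CPM, the primitive endoderm list to 81.6 against 6.79 CPM, the trophectoderm list to 41.5 against 10.7 CPM and the neural list to 181 against 103 CPM, so that lists of several lineages were higher in these cells. The 4 such cells of library 2 and the 31 of library 4 held 1691 and 726 CPM of Vim and 2676 and 340.1 CPM of Tagln. Col1a2 stood at 11.5 CPM in the set of library 4 and had no UMI in that of library 2, and the 6 cells of library 1 had no UMI of Tagln or Col1a2. The fibroblast list as a whole summed to 4.604, 8.21, 24.4 and 10.2 CPM over all Zfp42-low cells, and its defining genes Lum and Dcn to at most 0.3004 CPM in any library. Keratin-free cells were 32.7% of the 52 and 47.5% of the other Zfp42-low cells of library 3. Most of both thus held some Krt8 or Krt18 UMIs below the limit. Keratin-high cells of library 3 had at least 5 such UMIs and at most 1 of Zfp42. Their contractile list was higher than that of the 52, at 7497 against 5676 CPM. Their trophectoderm and neural lists were higher too, at 77.3 and 243 CPM. Their fibroblast and primitive endoderm lists were lower, at 78.5 and 27.3 CPM.

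These few cells set some values of the class in library 3. Vim over all Zfp42-low cells stood at 109, 108, 313 and 71.2 against 168, 165, 123 and 95.02 CPM and pointed up only in library 3; without cells of at most 2 Pou5f1 UMIs, the log2 ratio of Vim was -0.63, -0.79, -0.74 and -0.65, below 0 in all 4 libraries. The contractile list, 10 targets of serum response factor and their relatives, had log2 ratios of 1.12, 0.601, 2.07 and 0.91 with all cells and 1.13, 0.32, 1.398 and 0.87 without them. None of its 3 tested genes passed in all libraries. Tagln, a gene of the list below the count minimum, had log2 ratios of 3.99, 4.38, 4.00 and 3.25 with all cells. Without cells of at most 2 Pou5f1 UMIs they were 4.01, 2.90, 2.82 and 3.15. Cald1 stayed higher, with log2 ratios of 2.24, 1.95, 2.28 and 2.05. The counts over all genes were little changed, at 375 higher and 404 lower, of which 365 and 373 were among the 385 and 388 of the whole class, and 11 of 13 naive genes were lower.

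Cell cycle genes differed little. None of 14 S phase genes and none of 14 G2 and M phase genes passed, and the summed S phase list had log2 ratios of -0.01 to 0.08. The G2 and M phase list was slightly lower in all 4 libraries (-0.19, -0.26, -0.32 and -0.29). Of 14 glycolysis genes, Ldha (lactate dehydrogenase A) and the glucose transporter Slc2a1 were higher, the latter at 173, 282, 176 and 345 against 76.5, 145, 90.8 and 165 CPM, and Hk1, a hexokinase, was lower, beside 4.11 and 4.14% of all tested genes. Among 10 p53 targets, Phlda3 and Bbc3 (Puma) were higher (1.598- to 2.99-fold and 1.504- to 2.0998-fold), beside 4.11% of all tested genes. Cdkn1a (p21) stood at 32.1, 42.5, 104 and 29.8 against 30.9, 26.3, 26.97 and 19.8 CPM, with only library 3 far above. Of the 7 tested genes of the stress response list, only Ddit4, an inhibitor of mTORC1, was higher, at 86.6, 53.3, 45.5 and 61.3 against 20.2, 15.7, 10.1 and 18.7 CPM, beside the same 4.11%.

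Of 9 tested imprinted genes, 3 were higher (4.11% of all tested genes were) and none lower: Cdkn1c (p57), an inhibitor of the cell cycle, at 36.7, 62.98, 86.7 and 63.5 against 17.3, 34.4, 24.3 and 28.9 CPM, Grb10, an adaptor that restrains growth factor signals, at 55.6, 47.6, 73.1 and 49.6 against 19.5, 14.4, 18.3 and 12.9 CPM, and Snrpn at 172, 220.1, 155 and 185 against 93.3, 108, 82.2 and 90.4 CPM. The abundant noncoding RNA Meg3 reached 544, 733, 727 and 794 against 386, 462, 401 and 487 CPM and missed 1.5-fold in library 1. Tsix, the antisense RNA of Xist, was lower (43.3, 33.1, 39.5 and 38.995 against 78.3, 65.7, 71.99 and 59.3 CPM). None of the 6 speckle genes passed, and none of the 3 nuclear-retained RNAs or 5 tested immediate early genes. Mitochondrially encoded genes took 4.72, 4.03, 3.97 and 3.46% of the UMIs of Zfp42-low cells and 5.38, 4.13, 4.65 and 3.698% of those of Zfp42-high cells, and ribosomal protein genes 28.8, 26.3, 26.7 and 27.2% against 30.1, 27.02, 29.3 and 28.5%. Both shares were lower in Zfp42-low cells of every library, and their part in the results was not tested beyond the rescaling given under the alternatives.

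Zfp42-low cells were split by their raw UMIs of Fgf5 and Pou3f1, genes of the rule, as a description. Cells without such a UMI were shallower, with median UMIs of 14480.5, 16397, 15443 and 14201.5 in libraries 1 to 4 against 21078, 17409.5, 19778 and 18428 in cells with 3 or 4, and the part of depth in the following values was not tested. Those without an Fgf5 or Pou3f1 UMI held 1478, 1109, 653 and 427 CPM of the naive list in libraries 1 to 4. Those with 1 or 2 held 559.8, 408, 371 and 279 CPM and those with 3 or 4 held 256, 312, 302 and 231 CPM. The formative list ran the other way, from 437, 858, 761 and 1189 CPM to 1199.9, 1918, 1057 and 1850.1 CPM. Cells with none of the 4 limiting genes came nearest to the Zfp42-high cells that lacked them too, with 1655, 1296, 834 and 544 against 1882, 1629, 1650.2 and 1353 CPM of the naive list. In library 1 this was a small difference and in library 4 a large one.

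**Figure D3:**
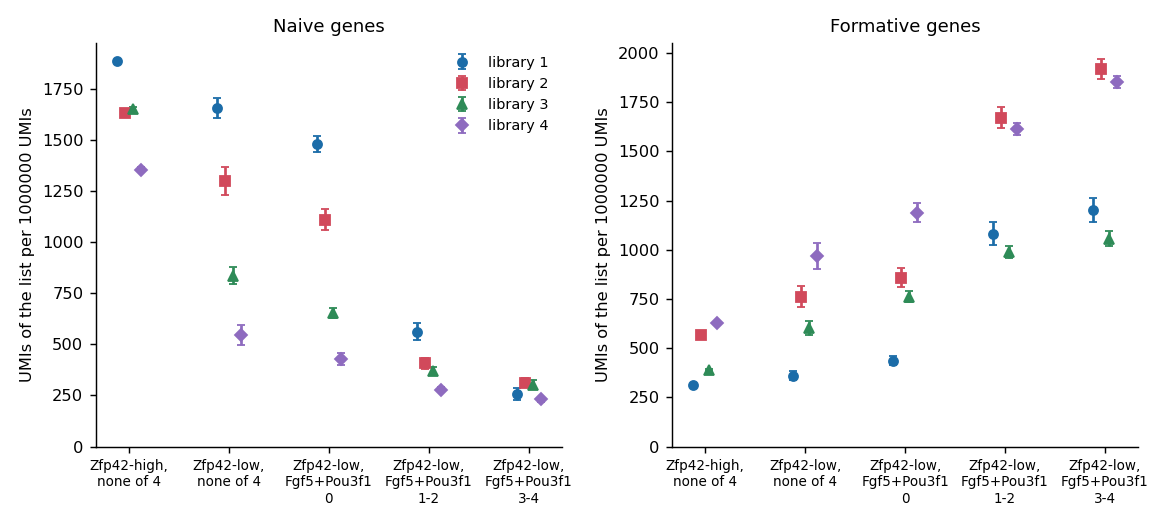
Summed CPM of the naive and formative lists (y axes, 95% counting intervals) in Zfp42-high and Zfp42-low cells with none of the 4 limiting genes and in Zfp42-low cells with 0, 1 or 2, and 3 or 4 UMIs of Fgf5 and Pou3f1 (x axis), 1 point per library. In the last 3 groups the naive list goes from 1478 to 256 CPM in library 1 and from 427 to 231 CPM in library 4.

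At the formative limit itself, cells on either side differ by 1 captured molecule of the genes of the rule, and they are described only. Zfp42-low cells with 4 UMIs of Fgf5 and Pou3f1 held 287, 299, 292 and 234 CPM of the naive list, and formative cells with 5 held 321, 312, 326 and 228 CPM. For the formative list the values were 1248, 1962, 992 and 1883 CPM inside and 1151, 1942, 1084 and 1821 CPM outside. Those of library 1 rest on 22 cells inside and 16 outside. At the keratin limit, 6, 5, 17 and 28 cells lay just outside, too few in libraries 1 and 2 to set beside those just inside. The contractile list stood at 2487 CPM inside and 2385 CPM outside in library 3 and at 877 and 931 CPM in library 4.

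Cell by cell, with every cell thinned to 5000 UMIs, the median Zfp42-low cell held 5, 2, 2 and 1 UMIs of the naive list in libraries 1 to 4 and the median Zfp42-high cell 9, 8, 8 and 6. Zfp42-low cells with no naive UMI at this depth were 11.3, 18.95, 20.7 and 34.2%, against at most 0.712% of Zfp42-high cells. Many Zfp42-low cells of library 1 were as rich in naive message as ordinary Zfp42-high cells. Those at or above the lower quartile of the Zfp42-high cells were 42.2, 17.7, 13.8 and 9.97% after thinning and 38.4, 11.7, 9.04 and 3.26% as a share of each cell's own UMIs without it. Those below the 5th percentile were 42.2, 65.8, 64.5 and 63.5% and 47.97, 80.05, 83.7 and 88.7%. In library 1 both tails were well filled. After thinning the limits are whole UMIs, with lower quartiles of 7, 5, 6 and 4 and 5th percentiles of 4, 3, 3 and 2 UMIs. Of the Zfp42-high cells, 79.0, 83.7, 76.5 and 81.9% then lay at or above the quartile and 3.30, 3.96, 3.45 and 2.95% below the 5th percentile. In library 4 the Zfp42-low cells below the 5th percentile were 63.5% after thinning, no more than in libraries 2 and 3 but under a lower limit, and 88.7% without it.

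**Figure D4:**
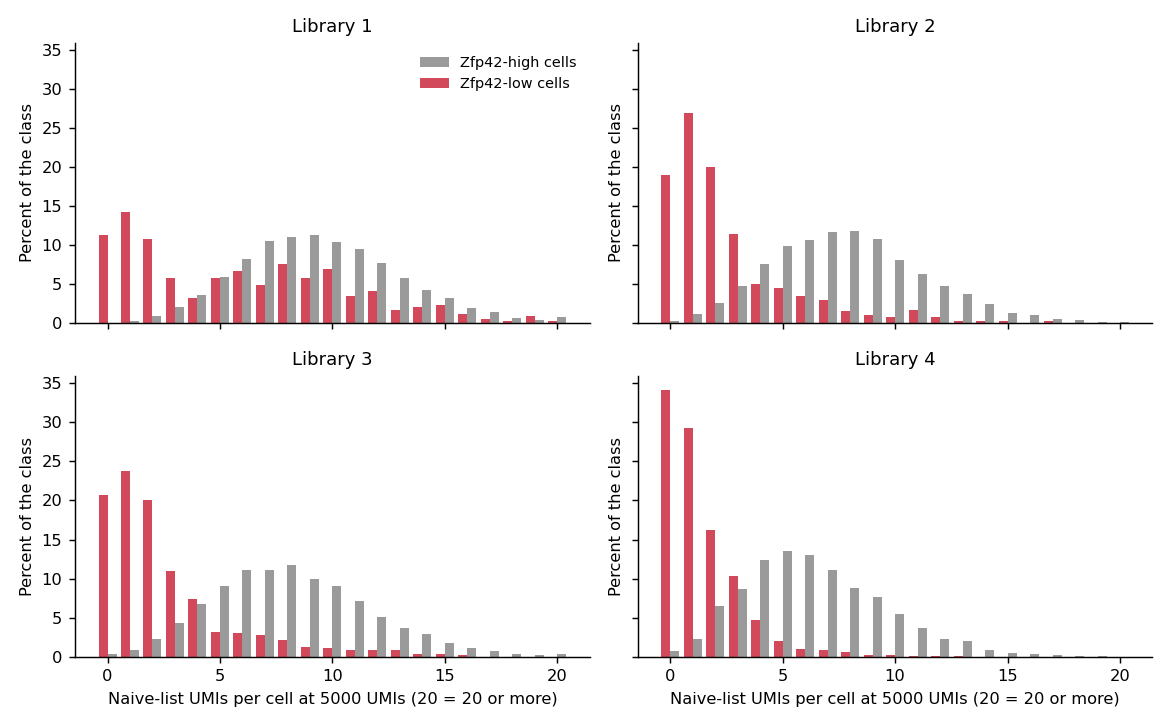
Share of cells (y axis, percent of the class) by the number of naive list UMIs per cell after thinning to 5000 UMIs (x axis, the last bar holding 20 or more), in Zfp42-low and Zfp42-high cells of each library. Zfp42-low medians are 5, 2, 2 and 1 UMIs and Zfp42-high medians 9, 8, 8 and 6, and the Zfp42-low cells of library 1 spread over both ranges.

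Shares of cells with a UMI differed by gene. A Klf4 UMI was found in 30.2, 8.98, 10.6 and 3.26% of thinned Zfp42-low cells and 55.5, 44.04, 47.5 and 32.96% of Zfp42-high cells. In formative cells, which should hold little Klf4, the share was 0, 4.09, 1.72 and 1.28%, below that of the Zfp42-low cells in every library. Without thinning the 3 shares were 50, 20.4, 21.1 and 7.83%, 91.5, 84.8, 86.9 and 73.5% and 5.66, 13.5, 11.6 and 6.23%, at median depths of 16468, 16888, 17308 and 16978, 18902, 22094, 19292 and 21479 and 21890.0, 22110.0, 23953 and 21444 UMIs. Pou5f1 was found in 98.8, 97.3, 90.1 and 98.2% of thinned Zfp42-low and 98.03, 97.7, 96.4 and 97.1% of Zfp42-high cells, lowest in library 3, which had the most cells of at most 2 Pou5f1 UMIs. Sox11 was found in 17.2, 37.7, 29.96 and 36.9% against 3.103, 11.1, 3.998 and 12.6%.

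Set against Zfp42-low formative cells (at least 5 UMIs of Fgf5 and Pou3f1; 2101 cells), Zfp42-low cells differed in few genes. Of 6008 tested genes, 24 (0.399%) were higher in all 4 libraries and 0 (0.00%) lower. Library 1 has only 53 formative cells, and library 4 had the smallest differences: without library 4, 73 genes were higher and 2 lower. Formative cells were deeper, with median UMIs of 21444 to 23953 over the libraries against 16468 to 17308.5 in Zfp42-low cells. With formative cells weighted to the UMI distribution of the Zfp42-low cells, 23 genes were higher and 0 lower. Of the 23, 17 were among the 24. As the count minimum pools both classes, a gene scarce in formative cells can enter through the Zfp42-low cells. Of 13 naive genes 9 were tested, and 6 of these were among the 24. The naive list held 1032, 527, 459 and 276 CPM against 301, 271, 306 and 229 CPM in formative cells. Its log2 ratios were 1.78, 0.96, 0.59 and 0.27, so that in library 4 the 2 classes were nearly level. No formative gene passed, and the list had log2 ratios of -0.71, -0.47, -0.28 and -0.26, lower in Zfp42-low cells of each library but by under 1.5-fold in libraries 2 to 4.

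Jam2, a junctional adhesion molecule, led the genes that were higher than in formative cells. It stood at 49.6, 21.2, 15.7 and 5.23 CPM in Zfp42-low and 3.85, 6.49, 2.05 and 2.25 CPM in formative cells. Esrrb, at 39.4, 15.1, 12.2 and 6.19 against 1.54, 3.75, 1.88 and 2.72 CPM, and Tfap2c, an AP-2 factor of naive and germ line cells, at 28.8, 14.3, 10.8 and 5.35 against 1.54, 3.204, 3.92 and 2.36 CPM, came next. Fbxo15, an Oct4 target long used as a reporter of pluripotency, was 1.82- to 4.803-fold higher. Cdkn1a was higher than in formative cells too, by 1.62- to 3.77-fold. Bmp4 stood at 19.8, 12.8, 16.4 and 6.61 against 0, 5.39, 3.75 and 3.899 CPM, with no UMI in the formative cells of library 1, where the floor of 3 UMIs corresponds to 2.31 CPM. The values of Esrrb and Tfap2c in those cells rest on 2 UMIs each, which is under that floor.

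Keratin-high cells (1165 cells with at least 5 UMIs of Krt8 and Krt18 and at most 1 of Zfp42) lay further off. No limit on Fgf5 and Pou3f1 was set for them. Their mean UMIs of Fgf5 and Pou3f1 were 7.36, 9.51, 5.68 and 8.10 in libraries 1 to 4, against 0.799, 2.02, 1.32 and 2.12 in Zfp42-low cells. The 2 classes thus differ in formative message by rule as well as in keratin. Of 6957 tested genes, 95 (1.37%) were higher in Zfp42-low cells and 266 (3.82%) lower. With keratin-high cells weighted to the UMI distribution of the Zfp42-low cells, 110 were higher and 298 lower, of which 75 and 222 were among the 95 and 266. All 7 tested contractile genes, of 10 in the list, were lower. The count minimum pools both classes, so a gene abundant in keratin-high cells alone can enter through them, and only 3 of the 10 were tested against Zfp42-high cells. The list stood at 344, 377, 997 and 611 CPM in Zfp42-low and 3960.4, 2449, 7497 and 2775 CPM in keratin-high cells. Tagln stood at 13.5, 33.3, 156 and 64.5 against 1166, 764, 2309 and 895 CPM. Krt19, a keratin the rule did not use, stood at 2.56, 4.63, 8.35 and 6.25 against 209, 128, 235 and 210.0 CPM, and Dsp (desmoplakin, of desmosomes) at 3.75, 5.82, 4.91 and 6.49 against 51.1, 74.3, 71.4 and 78.2 CPM. Annexins (Anxa1, Anxa2 and Anxa3), S100a6, the actin cross-linker Flnc and the actin-severing protein Gsn were among the 12 that differed most, each lower in Zfp42-low cells by at least 6.205-fold. The immediate early genes Jun, Junb and Ier3 were lower as well.

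Pluripotency genes lay the other way. Of 9 tested naive genes, 7 were higher in Zfp42-low than in keratin-high cells, and of 8 core genes Dppa5a and Tdgf1 were, beside 1.37% of all tested genes. A gene scarce in keratin-high cells can enter this test through the Zfp42-low cells. In library 4 the naive list as a whole was level, at 276 against 269 CPM, though each of the 7 was at least 1.5-fold higher there. Esrrb stood at 39.4, 15.1, 12.2 and 6.19 against 1.86, 3.85, 1.89 and 1.601 CPM. In the keratin-high cells of library 1 the floor of 3 UMIs corresponds to 1.39 CPM, so the value there is near it. Tdh (threonine dehydrogenase, on which mouse stem cells depend) stood at 340.0, 271, 161 and 106 against 15.8, 64.9, 29.3 and 36.7 CPM. Otx2 was the 1 formative gene that passed, at 42.1, 135, 30.5 and 128 against 20.9, 81.4, 7.999 and 69.95 CPM. In sum, the formative list had log2 ratios of 0.01, -0.01, 0.404 and 0.29 between the 2 classes. Library 4 again had the smallest differences in the naive list (2.06, 1.07, 0.78 and 0.04 in libraries 1 to 4), and without it 174 genes were higher.

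**Figure D5:**
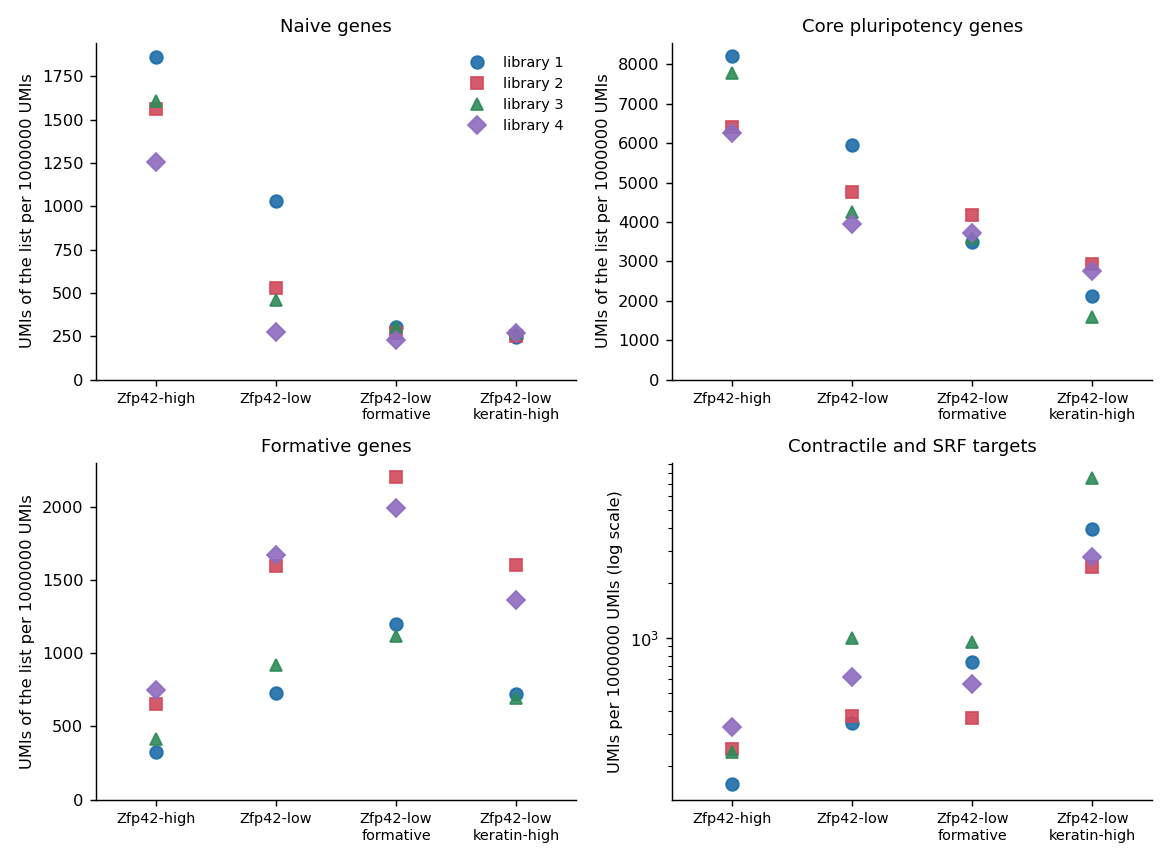
Summed CPM of the naive, formative, core pluripotency and contractile lists (y axes, contractile on a log axis) in Zfp42-high, Zfp42-low, formative and keratin-high cells (x axis), 1 point per library. Zfp42-low cells hold 276 to 1032 CPM of the naive list, beside 1257 to 1864 CPM in Zfp42-high and 229 to 306 CPM in formative cells. Their value in library 4, 276 CPM, lies within the range of the formative cells. Of the contractile list they hold 344 to 997 CPM against 2449 to 7497 CPM in keratin-high cells.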

How the data were processed

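Droplet 3' single-cell RNA sequencing (10x, v3 chemistry) was run on 2 WT and 2 Srrm2 hKO samples. Per the labels and the study's methods, the authors mapped each library to mm10 with Cell Ranger 6.1.2 and joined the 4 libraries with the aggregation step at default settings, which subsamples reads to like depth. The deposited file holds raw UMI counts of 32285 genes in 41142 barcodes, pooled, with a library number after each barcode. Subsampling lowers the counts of the deeper libraries, so that depths here are below those sequenced.

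Cells were kept where UMIs and detected genes were each at least the mean minus 1 SD of their library and mitochondrial genes took at most 10% of UMIs, which left 31989. No column was left unmapped for want of a name, but the library numbers could not be tied to samples. The planned comparison of Srrm2 hKO with WT was therefore not made. UMIs were summed per class and library and divided by the class total (CPM, per 1000000 UMIs). Log2 ratios carry exact conditional Poisson intervals and shares exact Clopper-Pearson intervals, at 95%. Classes of at least 50 cells per library were compared, and the 5 genes of the rule were left out of all counts. Named genes were the 12 higher and 12 lower with the largest smallest absolute log2 ratio over libraries, without mitochondrial, Gm and Rik genes, plus the genes of the lists and Srrm2. Others are said to be chosen after their values were seen. The members, the 27 lists and the limits were chosen with earlier results of these data known. The study's own lists and cell clusters were not used. Thinning drew UMIs without replacement at a fixed seed.

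Coordinates are from GENCODE M21 (GRCm38, the assembly behind mm10). Python 3.11.15, numpy 2.4.6, scipy 1.17.1, pandas 2.3.3 and matplotlib 3.10.9 were used. Alternatives covered the limits of the rule, depth, scaling, cell filters, count minimum, fold limit and leaving out each library.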

Additional observations from a re-analysis of the deposited data

How the results depend on the processing

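The counts of genes depended on the limits that define the cells, on the count minimum and on the fold limit. Genes higher in Zfp42-low cells numbered 385 in the main comparison, 53 with limits under 2 UMIs, 10 with none of the 4 limiting genes, 582 and 196 with expected counts of at least 10 and 50, 2428 with no count minimum and 120 at a fold limit of 2. Genes lower numbered 388, 34 with limits under 2 UMIs, 5 with none of the 4 genes, 212 over all barcodes, 680 with no count minimum and 87 at a fold limit of 2. Leaving out each library in turn gave 399 to 670 higher and 405 to 570 lower, with 670 and 570 without library 1. Against formative cells it gave 24 to 73 higher (73 without library 4) and 0 to 2 lower, and against keratin-high cells 102 to 174 higher (174 without library 4) and 285 to 396 lower. The naive list had a median log2 ratio over libraries of -1.69, which became -2.07 with Zfp42 at 0, -0.997 with limits under 2 UMIs, -1.99 with rescaled limits, -1.76 when centred on the median gene, -1.29 over all barcodes, -0.66 with none of the 4 genes and -1.81 to -1.57 with each library left out. The formative list had 1.16, which became 1.27 with Zfp42 at 0, 0.82 with limits under 2 UMIs, 1.28 with rescaled limits, 1.22 with cells weighted by UMIs, 1.13 without mitochondrial and ribosomal protein genes, 1.11 when centred, 1.01 over all barcodes, 0.52 with none of the 4 genes and 1.15 to 1.17 with each library left out. The share of kept cells became 2.91, 3.48, 5.80 and 11.2% with rescaled limits, 2.21, 2.41, 3.98 and 7.78% with Zfp42 at 0, and 31.9, 34.8, 37.3 and 55.1% after thinning to 5000 UMIs. The alternatives without the 4 genes, without cells of at most 2 Pou5f1 UMIs and, for formative and keratin-high cells, those without each library or weighted by UMIs were chosen after seeing the data. All 504 values of the 24 named genes under the 21 alternatives kept their direction. The alternatives with another count minimum or fold limit, with a library left out or with centring could not change it. The genes had also been named for their large ratios in these libraries. Centring on the median gene gave 328 and 440, and scaling without mitochondrial and ribosomal protein genes 344 and 428, both higher and lower in that order. The median over tested genes lay 0.04, 0.04, 0.10 and 0.06 above 0 on the log2 scale in libraries 1 to 4. The cause of these changes was not tested. Genes of under 20 expected UMIs in the smaller class were left out of the main counts. Zfp42-low and other cells were compared within each library. No paired analysis was possible between WT and Srrm2 hKO because the library numbers carry no replicate number or sample label.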

Other observations

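A few genes outside the lists were examined after their values had been seen. No list was tested here, and the genes are given as values only. B2m, the invariant light chain of class I molecules, stood at 22.5, 12.8, 36.4 and 18.3 CPM in the Zfp42-low cells of libraries 1 to 4 and at 4.99, 4.56, 6.47 and 4.71 CPM in the Zfp42-high cells, 2.82- to 5.62-fold higher, and H2-D1, a second heavy chain, at 12.96, 13.6, 14.3 and 16.3 against 6.31, 4.06, 6.52 and 5.096 CPM. The peptide transporter gene Tap1 was below the count minimum, at 3.07, 6.12, 7.66 and 7.21 against 0.516, 1.41, 1.07 and 3.15 CPM, and the loading factor Tapbp did not pass (5.63, 8.95, 8.65 and 10.9 against 6.86, 7.13, 6.24 and 6.6002 CPM). B2m was higher still in keratin-high cells, at 75.2, 47.9, 102 and 46.1 CPM.

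Fabp5, a fatty acid binding protein, stood at 264, 406, 317 and 417 against 46.7, 143, 66.6 and 154 CPM, and Mdk (midkine, a secreted growth factor) at 492, 294, 599.5 and 353 against 156, 91.8, 196 and 110.1 CPM, an almost even 3.06- to 3.21-fold in the 4 libraries. Actg1, cytoplasmic gamma actin, was 2.11- to 2.65-fold higher while Actb, its beta counterpart, had log2 ratios of -0.25 to 0.101. Hes6, a basic helix-loop-helix factor, was 2.75- to 4.62-fold higher and the surface antigen Cd24a 3.08- to 3.83-fold higher. On the other side, Zfp57, which protects methylation at imprinted loci, stood at 78.96, 50.6, 53.3 and 31.4 against 139, 135, 131 and 110.4 CPM, while its corepressor Trim28 had log2 ratios of -0.65 to -0.46 and did not pass. Spp1 (osteopontin) and Rbpj, the DNA-binding partner of Notch, were lower by 1.94- to 3.49-fold and 1.55- to 2.43-fold.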
